A study of Mus musculus with 6 samples.

Results

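The genes described here are those that the array names Zfp followed by a digit, the mouse naming series for zinc finger proteins. The array carries 356 such genes on 556 probes (619 spots). For each gene the probe with the highest mean log2 signal over the 6 arrays was taken, and the gene was kept where that probe was well above background on all 6 arrays, which left 282 genes, or 79.2%, against 53.5% of all gene names on the array. The cells were G1E-ER-GATA-1, an erythroid line derived from mouse stem cells without a working Gata1 gene, to which a fusion of GATA-1 with the hormone-binding part of the oestrogen receptor had been added. The 3 knockdown samples received an siRNA specific for Mi2β and the 3 control samples a non-targeting siRNA, given by nucleofection in a first round at 0 h and a second at 24 h. Oestradiol, which switches GATA-1 on in this line, was added to all 6 samples at 24 h, and RNA was taken at 48 h, after 24 h of hormone. All samples share the 1 cell line, the GATA-1 loss and the hormone treatment, and no sample without hormone was part of the comparison. Whether replicates were separate cultures is not stated in the labels, so p-values cover only the spread between these samples, and this spread may be technical. The samples are bulk RNA, in which fewer cells of a kind and less RNA per cell cannot be told apart.

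Most Zfp proteins bind DNA through an array of C2H2 zinc fingers, each finger reading a few bases. In mammals many of them also carry a KRAB domain, which recruits the corepressor TRIM28 (KAP1), and TRIM28 in turn brings the histone methyltransferase SETDB1, HP1 proteins and the NuRD complex to the bound site. Mi2β, the product of Chd4, supplies NuRD with its nucleosome-moving activity, while other subunits deacetylate histones. The KRAB genes multiplied by tandem duplication and stand in chromosomal clusters. The name Zfp is not a class of protein. It also covers CCCH fingers that bind mRNA, such as Zfp36l1, and C2H2 proteins without a KRAB domain, such as Zfp148 and Zfp281. Which of the 282 carry a KRAB domain was not analysed here.

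A level is the log2 processed signal of a probe less the 75th percentile of its array, so a level of 0 is that percentile, and levels of different probes are not comparable. The siRNA target fell. Chd4 stood at 4.62, 4.60 and 4.54 on the Mi2β knockdown arrays, against 5.93, 6.00 and 5.75 on the control arrays, a log2 change of -1.31 (SE 0.10, n = 3 each, limma adjusted p = 0.0016) or 2.48-fold lower. Between 48.9% and 74.0% of spots were well above background on the knockdown arrays, and between 53.4% and 56.8% on the control arrays. The 12 erythroid marker genes checked were well above background on all 6 arrays. Of these Hbb-b1 and Alas2 rose while Slc4a1 and Ahsp fell. Of 8 megakaryocyte markers, Pf4, Gp9 and Gp1ba fell, and Ppbp was well above background on none of the 6 arrays. Itga2b of the same list went the other way, with a change of 1.51 that did not pass (limma adjusted p = 0.051). The summed linear level of the list (in units of the array's 75th percentile) ranged from 14.4 to 18.9 in knockdown and from 38.9 to 44.7 in control. Pf4 had the highest level of the list, averaging 3.25 in knockdown and 4.87 in control, and makes up the largest part of this sum. Tpsab1 of 7 mast cell markers and Lck of 6 T cell markers rose, and no member of the myeloid (8), B cell (5) or fibroblast (4) lists passed the test. Tpsab1 was well above background on only 3 of the 6 arrays, the fewest that the test allowed. It averaged -3.44 in knockdown and -6.11 in control, so its rise is limited by low signal. Of the mast cell markers, 3 were well above background on no array (Mcpt8, Fcer1a and Ms4a2). Over all genes tested 4.98% rose and 4.57% fell by limma, and the lists are short. Whether any list differs from that background was not tested. The part of these markers in the Zfp values was not tested.

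After Mi2β knockdown the Zfp-named genes changed in both directions and about as often as other genes. By limma with Benjamini-Hochberg adjustment over all 22054 genes tested (threshold 0.05 on the adjusted p), 15 of the 282 rose (5.32%) and 13 fell (4.61%), and 254 did not pass. Over all genes tested 4.98% rose and 4.57% fell, and over the 18624 genes well above background on all 6 arrays 5.08% rose and 5.29% fell, so the shares among Zfp genes are near the background and are not a result about them. Their median log2 change was -0.06, against -0.03 over all genes tested and -0.05 over those detected on all 6 arrays, with 115 changes above 0 and 167 below. Changes of at least 0.5 on the log2 scale in either direction were seen in 33 Zfp genes (11.7%) and in 15.5% of the 18624 genes. The middle 90% of Zfp changes ran from -0.53 to 0.60, against -0.59 to 0.69 for the 18624 genes. Of the genes past the threshold, 6 Zfp genes rose at least 2-fold (2.13% of the 282, against 2.2% of the 18624 and 2.53% of all genes tested) and 0 fell as much (against 0.977% and 0.893%). The groups did not overlap in 53 Zfp genes that were higher in knockdown (18.8%, against 13.5% of the 18624) and in 65 that were lower (23.0%, against 21.2%). At an unadjusted p under 0.05, 39 of the 282 Zfp genes were higher and 42 lower, against 10.9% and 15.4% of the 18624 genes and 10.5% and 13.4% of all genes tested.

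**Figure D1:**
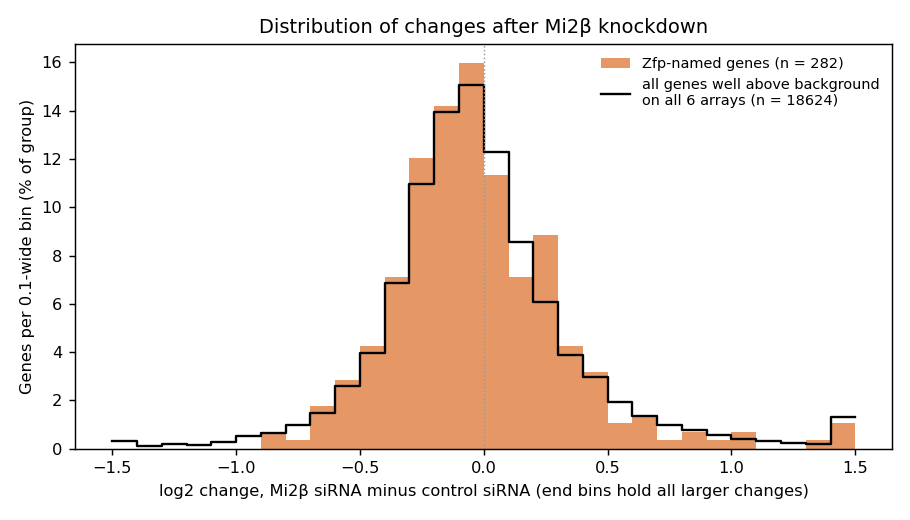
Share of genes (percent of each group, y axis) per 0.1-wide bin of log2 change, Mi2β siRNA minus control siRNA (x axis), for the 282 Zfp-named genes (bars) and all 18624 genes well above background on all 6 arrays (line). Both distributions peak just below 0, at medians of -0.06 and -0.05, and Zfp changes run from -0.87 to 1.88, with those beyond the axis counted in the end bin.

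These counts depend on how the arrays were scaled and on single arrays. With each array scaled to its median, which moved the median change of all genes to -0.27, 3 Zfp genes rose and 0 fell. The 6 arrays lie in 2 rows of 1 slide, with arrays of both groups in each row. With the row as a block 9 rose and 10 fell, and within row 1 alone (2 arrays per group) 5 rose and 1 fell, while row 2 holds 1 array of each group and gives no test. Without knockdown replicate 1, 2 or 3 the counts of rises were 6, 7 and 9 and of falls 2, 2 and 5, and without control replicate 1, 2 or 3 they were 7, 12 and 8 rises and 4, 4 and 6 falls. Of the 28 genes, 8 kept their call in each of these 6 fits: Zfp296, Zfp1, Zfp105, Zfp867, Zfp54 and Zfp839 among the rises and Zfp473 and Zfp341 among the falls.

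**Figure D2:**
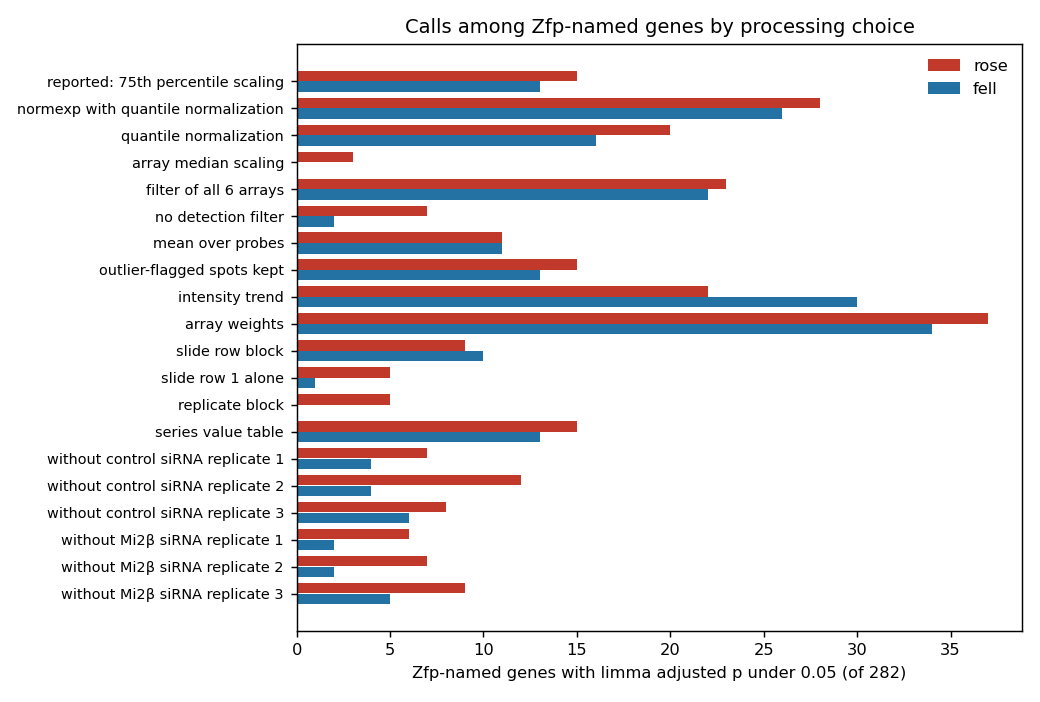
Number of Zfp-named genes (x axis, of 282) that rose or fell by limma at an adjusted p under 0.05 under each processing choice (y axis), with the reported setting at the top. The bars run from 3 to 37 rises and from 0 to 34 falls.

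The promoters of 6 of the 8 genes whose calls held without any 1 array are shown, 5 rises and the largest fall, because these genes carry the comparison. Each is the RefSeq window of GRCm38.p6 that runs from 250 bases before to 50 bases after the transcript start (the first window where RefSeq lists several), read in the direction of transcription, with CG dinucleotides in capitals. The windows are chr7:19577037-19577336 on the plus strand for Zfp296, chr8:111643193-111643492 on the plus strand for Zfp1, chr9:122922828-122923127 on the plus strand for Zfp105, chr11:59472425-59472724 on the minus strand for Zfp867, chr17:21422977-21423276 on the plus strand for Zfp54 and chr7:44748568-44748867 on the minus strand for Zfp473.
Zfp296: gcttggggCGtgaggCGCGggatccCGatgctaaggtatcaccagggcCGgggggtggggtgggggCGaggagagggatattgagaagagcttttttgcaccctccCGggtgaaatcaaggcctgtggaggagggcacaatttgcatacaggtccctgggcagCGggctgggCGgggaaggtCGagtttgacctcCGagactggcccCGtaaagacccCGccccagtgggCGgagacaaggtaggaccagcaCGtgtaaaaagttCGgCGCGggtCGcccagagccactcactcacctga
Zfp1: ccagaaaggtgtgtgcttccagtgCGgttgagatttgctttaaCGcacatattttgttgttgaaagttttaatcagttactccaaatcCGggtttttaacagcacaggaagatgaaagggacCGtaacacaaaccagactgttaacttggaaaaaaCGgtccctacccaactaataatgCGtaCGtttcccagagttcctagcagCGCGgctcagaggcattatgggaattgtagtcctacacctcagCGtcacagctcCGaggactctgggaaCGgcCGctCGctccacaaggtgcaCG
Zfp105: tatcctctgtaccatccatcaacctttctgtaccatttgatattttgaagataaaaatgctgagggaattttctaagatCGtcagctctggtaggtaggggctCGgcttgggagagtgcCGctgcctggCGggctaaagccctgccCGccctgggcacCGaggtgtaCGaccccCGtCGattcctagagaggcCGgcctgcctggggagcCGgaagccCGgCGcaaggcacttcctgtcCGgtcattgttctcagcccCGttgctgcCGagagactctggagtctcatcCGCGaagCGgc
Zfp867: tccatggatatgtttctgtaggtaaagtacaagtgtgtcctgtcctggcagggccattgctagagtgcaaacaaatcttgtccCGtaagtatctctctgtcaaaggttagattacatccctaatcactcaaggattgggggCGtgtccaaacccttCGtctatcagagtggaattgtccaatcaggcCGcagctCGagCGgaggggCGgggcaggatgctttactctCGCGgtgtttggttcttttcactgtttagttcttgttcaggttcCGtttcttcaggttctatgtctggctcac
Zfp54: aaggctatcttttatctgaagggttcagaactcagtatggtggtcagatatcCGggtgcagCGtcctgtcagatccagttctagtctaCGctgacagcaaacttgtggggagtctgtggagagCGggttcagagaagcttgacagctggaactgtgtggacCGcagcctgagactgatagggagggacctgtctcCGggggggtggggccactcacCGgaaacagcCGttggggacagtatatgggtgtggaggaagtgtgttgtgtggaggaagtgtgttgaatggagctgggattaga
Zfp473: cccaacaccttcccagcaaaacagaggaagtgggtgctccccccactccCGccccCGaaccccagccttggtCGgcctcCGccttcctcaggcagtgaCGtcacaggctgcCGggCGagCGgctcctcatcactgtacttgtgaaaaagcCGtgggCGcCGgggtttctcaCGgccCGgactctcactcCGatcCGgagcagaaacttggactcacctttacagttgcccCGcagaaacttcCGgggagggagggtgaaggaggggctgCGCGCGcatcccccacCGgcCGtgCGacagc
They hold 19, 15, 19, 10, 8 and 23 CG dinucleotides in the order printed. RefSeq windows were matched for 241 of the 282 genes (297 windows), with a median of 15 CG per window (quartiles 9 and 21), against 7 over all 32851 windows of the table (quartiles 3 and 20). The median was 17 for the 14 matched genes that rose (19 windows), 17 for the 13 that fell (18 windows) and 14 for the 214 not called (260 windows). Strings of the GATA factor motif (AGATAA or its variant AGATAG, and likewise TGATAA or its variant TGATAG), searched on both strands, occurred in 21.2% of the Zfp windows and in 29.8% of all windows. Of the windows printed, those of Zfp105 and Zfp867 hold 1 such match each, that of Zfp54 holds 3, and those of Zfp296, Zfp1 and Zfp473 hold 0. CACCC on either strand, the core of the Krüppel-like factor motif, occurred in 56.6% of Zfp windows and 57.5% of all windows. A match is a string in the window and not a site in use. The set of all windows was not limited to genes detected on the arrays, as the Zfp windows were. The CG and GATA contrasts therefore compare unmatched sets, and their cause was not tested.

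The largest rise was that of Zfp296, a C2H2 protein of embryonic stem cells that promotes reprogramming of fibroblasts to pluripotency. Its levels were -0.30, -0.44 and -0.61 on the knockdown arrays, against -2.30, -2.09 and -2.59 on the control arrays. Every knockdown array stood well above every control array. The change was 1.88 (SE 0.16, n = 3 each, limma adjusted p = 0.0020), or 3.67-fold. With normexp background correction and quantile normalization it was 1.34, also past the threshold. Its probe lies at chr7:20165945-20166004 in the mm9 coordinates of the files, and which exon or untranslated region lies under this and the other probes was not analysed here.

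Zfp1, Zfp105 and Zfp867 rose 2.72-, 2.70- and 2.55-fold with narrow groups. Zfp1, probed at chr8:114194523-114194582, stood at 2.68, 2.63 and 2.42 in knockdown and at 1.07, 1.24 and 1.10 in control, a change of 1.44 (SE 0.11, limma adjusted p = 0.0015). Zfp105, a gene known from male germ cells and probed at chr9:122839969-122840027, had 1.35, 1.38 and 1.37 in knockdown against -0.24, 0.04 and -0.0048 in control, a change of 1.43 (SE 0.11, limma adjusted p = 0.0014). The SD of its knockdown arrays was 0.02. Zfp867, probed at chr11:59275304-59275363, had 0.68, 0.58 and 0.77 in knockdown against -0.72, -0.52 and -0.76 in control, a change of 1.35 (SE 0.11, limma adjusted p = 0.0017). A second tested probe of Zfp867 also rose, by 0.83 (limma adjusted p = 0.0071). In these genes and in Zfp296 each array of one group lay more than 1 log2 unit from each array of the other.

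Zfp54 and Zfp839 also rose at least 2-fold. Zfp54, probed at chr17:21571882-21571941, had -0.80, -0.81 and -0.82 in knockdown against -1.89, -1.82 and -1.94 in control, a change of 1.07 (SE 0.09, limma adjusted p = 0.0016). Zfp839, probed at chr12:112106672-112106731, had -1.37, -1.65 and -1.47 in knockdown against -2.58, -2.38 and -2.55 in control, a change of 1.01 (SE 0.12, limma adjusted p = 0.0055). Its change was smallest with normexp and quantile normalization, at 0.61, a change moved by more than 1.5 times. Zfp599 averaged -0.23 ± 0.07 in knockdown and -1.21 ± 0.31 in control (SD, n = 3 each), a rise of 0.98 (SE 0.17, limma adjusted p = 0.021), with control replicate 2 at -0.85 above the other controls at -1.35 and -1.42. Its call held only in the fit without control replicate 2 (limma adjusted p = 0.011) and was lost without any other array (0.057 to 0.098). Both other tested probes of Zfp599 rose, by 1.38 and 1.14.

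The other rises were below 2-fold. Zfp202, whose human counterpart is a KRAB and SCAN domain repressor of lipid metabolism genes, had -2.91, -2.92 and -3.07 in knockdown against -3.93, -3.68 and -3.78 in control. Its change was 0.83 (SE 0.11, limma adjusted p = 0.0079) and 0.25 with normexp and quantile normalization, where the call was lost. The call was also lost with quantile normalization alone, array median scaling, slide row 1 alone and the replicate number as a block. Its levels were the lowest of the called genes, so its rise is limited by low signal. Without knockdown replicate 1 its adjusted p was 0.053 by limma, and the call held without each other array. Zfp946 rose by 0.69, Zfp667, described in rat heart after ischaemia under the name Mipu1, by 0.64, and Zfp629 by 0.60. Zfp658 rose by 0.58, Zfp768 by 0.48, Zfp953 by 0.47 and Zfp523, the counterpart of the human activator ZNF76, by 0.45. In these 7 genes the limma adjusted p lay between 0.013 for Zfp667 and 0.046 for Zfp953, and the SE between 0.09 and 0.14. Without single arrays the calls of Zfp658, Zfp629, Zfp768 and Zfp523 were lost whichever of the 6 arrays was left out (0.051 to 0.17). Those of Zfp946 and Zfp953 held only without control replicate 2 (0.030 and 0.048, limma) and were lost without each other array (up to 0.13 and 0.17). That of Zfp667 was lost without control replicate 1 (0.055), knockdown replicate 1 (0.070) and knockdown replicate 2 (0.053). The other tested probe of Zfp523, at a mean level of 0.07, had a change of 0.09 (limma adjusted p = 0.80). With the mean over probes the call of Zfp523 was lost.

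The falls were smaller than the largest rises. Zfp473, whose human counterpart ZNF473 takes part in 3′ end processing of replication-dependent histone mRNA, had -1.31, -1.30 and -1.05 in knockdown against -0.34, -0.31 and -0.41 in control. The change was -0.87 (SE 0.11, limma adjusted p = 0.0072), or 1.82-fold lower, at probe chr7:51986904-51986963, and a second probe also fell, by 0.67. Zfp341, whose human counterpart activates transcription of STAT3, had 1.43, 1.20 and 1.45 in knockdown against 2.21, 2.24 and 2.14 in control. The change was -0.84 (SE 0.11, limma adjusted p = 0.0074), or 1.79-fold lower, at probe chr2:154472419-154472478, and its second probe fell by 0.87. Both genes kept their calls without any 1 array.

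Zfp672 averaged 1.29 ± 0.07 in knockdown and 2.07 ± 0.24 in control (SD, n = 3 each), a change of -0.79 (SE 0.14, limma adjusted p = 0.025), with control replicate 2 at 2.33 above the other controls at 1.85 and 2.04. Its call held without control replicate 1 or 2 (0.037 and 0.049) and was lost without each other array (0.066 to 0.094). Zfp36l1, which binds AU-rich elements in mRNA and promotes their decay, had 1.86, 1.59 and 1.95 in knockdown against 2.40, 2.50 and 2.48 in control. Its change was -0.66 (SE 0.12, limma adjusted p = 0.025), with a control SD of 0.05 and knockdown replicate 2 the lowest array. The call held only without knockdown replicate 3 (0.040) and was lost without each other array (0.056 to 0.098). Zfp652, whose human counterpart is a partner of the ETO family corepressor CBFA2T3, averaged 2.94 ± 0.07 in knockdown and 3.54 ± 0.15 in control, a change of -0.60 (SE 0.11, limma adjusted p = 0.027), and its call held only without control replicate 2 (0.039; 0.062 to 0.11 without the others).

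The remaining falls were Zfp62 at -0.67, Zfp68 at -0.65, Zfp689 at -0.60, Zfp959 at -0.57, Zfp352 at -0.57, Zfp943 at -0.54, Zfp956 at -0.54 and Zfp74 at -0.40 on the log2 scale. Their limma adjusted p lay between 0.015 for Zfp959 and 0.047 for Zfp74. Zfp352 is a retrogene known from early cleavage embryos. Its second tested probe, which was not called, had a change of 0.58, and the mean over its probes gave 0.01 (limma adjusted p = 1.00). The mean over probes also turned Zfp74, to 0.02 (limma adjusted p = 0.98). That mean takes in every probe of a gene, also those that did not pass the detection filter. Zfp74 had no other tested probe, and the second probe of Zfp352 had a mean level of -5.09 and an SE of 0.79. Both reversals are therefore limited by low signal. The calls of Zfp62, Zfp68, Zfp352 and Zfp74 were lost whichever array was left out (0.051 to 0.16). Those of Zfp689 and Zfp956 held only without control replicate 3 (0.032 and 0.043), that of Zfp943 only without knockdown replicate 3 (0.046), and that of Zfp959 without control replicate 1, control replicate 3 or knockdown replicate 3 (0.048, 0.047 and 0.042). Left-out arrays raised the adjusted p of these 4 genes to at most 0.090, 0.14, 0.13 and 0.090 in the order named.

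**Figure D3:**
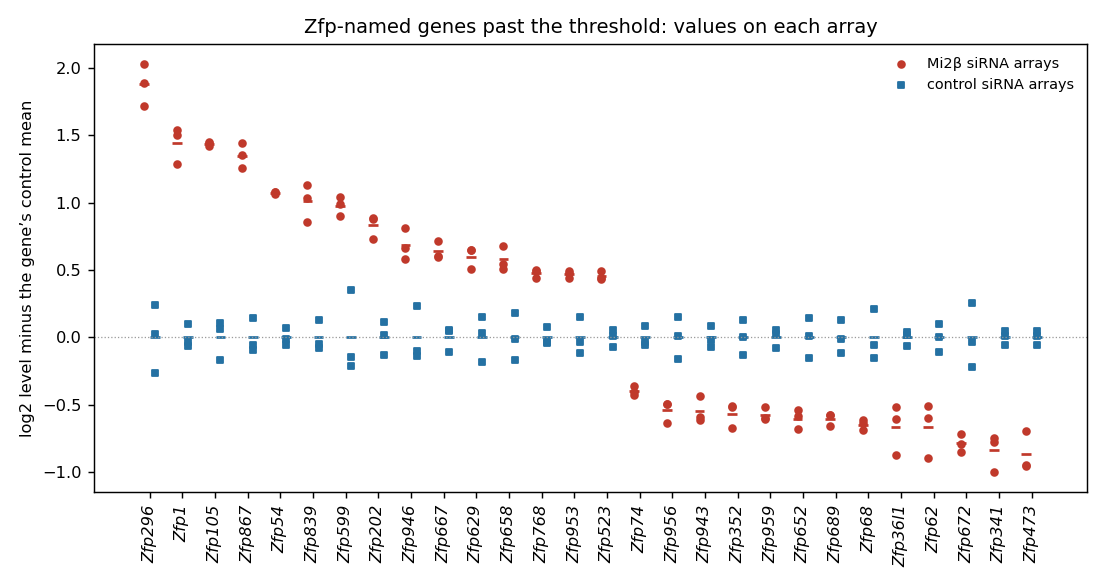
Log2 level on each array minus the gene's mean over the control arrays (y axis) for the 28 Zfp-named genes past the threshold (x axis, ordered by change), with Mi2β siRNA arrays as circles left of control siRNA arrays as squares and horizontal bars at group means. Changes run from 1.88 for Zfp296 to -0.87 for Zfp473. The groups do not overlap in any of the 28 genes, which follows largely from choosing them by the test on these same values.

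Zfp410 has a direct link to the target of the siRNA, since it activates Chd4 transcription in erythroid cells through a group of its motifs at the Chd4 gene. Its levels were 2.34, 2.24 and 2.55 in knockdown against 2.92, 2.74 and 2.82 in control. The groups did not overlap, and the change of -0.45 (SE 0.12) did not pass the test (limma adjusted p = 0.073), while it passed under 4 of 19 alternatives (0.013 to 0.48 over all). Of 32 Zfp genes listed for a known role, 31 were found on the array by these names and 27 were kept. Zfp296 rose, Zfp36l1 fell and 25 did not pass, with a median change of -0.03 over the 27. Over all genes tested 4.98% rose and 4.57% fell, so 1 call in each direction among 27 is near the background. Zfp36 (tristetraprolin), Zfp521, a partner of Ebf1, and Zfp42 (Rex1, a marker of pluripotent cells) were well above background on no array, and Zfp516 on 1 knockdown array.

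Among the known repressors, Zfp568, a KRAB protein that silences a placental Igf2 transcript, had 1.40, 1.51 and 1.21 in knockdown against 0.77, 0.95 and 0.94 in control. Its change of 0.48 (SE 0.12) did not pass (limma adjusted p = 0.058), although the groups did not overlap and 5 of 19 alternatives called it (0.010 to 0.78 over all). Zfp809, which recognises the primer binding site of murine leukaemia virus, had a change of 0.20 (limma adjusted p = 0.36), and Zfp57, which maintains methylation at imprinting control regions, one of -0.07 (0.91). The groups of both overlapped. Zfp148, which binds GC-rich promoters and has been tied to globin genes, had a change of 0.03, and Zfp281, a regulator of pluripotency, one of 0.00. Zfp217 had -0.18 and Zfp143, an activator that binds promoters, -0.17. None of these passed the test.

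In 6 other genes of this list the groups did not overlap and the change did not pass. With Zfp410 these make 3 higher and 4 lower of the 27 kept, called genes not counted. Over the 18624 genes, called genes included, the groups did not overlap in 13.5% (higher) and 21.2% (lower). Such separation is therefore common and is not a result about this list. Zfp91, a zinc finger protein with ubiquitin ligase activity, averaged -2.00 ± 0.11 in knockdown and -2.43 ± 0.06 in control, a change of 0.43 (limma adjusted p = 0.053). Zfp703, a Groucho-linked corepressor, averaged 5.44 ± 0.11 in knockdown and 5.85 ± 0.07 in control, a change of -0.41 (limma adjusted p = 0.059). Zfp592 and Zfp687, partners in a ZMYND8 complex, had changes of -0.32 and 0.13 (limma adjusted p = 0.10 and 0.44). A second tested probe of Zfp592 had a change of 0.02 (limma adjusted p = 0.92). Zfp217 and Zfp568 are the others. Zfp36l2, an mRNA-decay protein that sustains erythroid progenitors, averaged 4.20 ± 0.16 in knockdown and 4.27 ± 0.09 in control (SD, n = 3 each), a change of -0.08 (limma adjusted p = 0.75). The remaining kept members (Zfp106, Zfp110, Zfp207, Zfp219, Zfp292, Zfp317, Zfp326, Zfp335, Zfp369, Zfp384, Zfp423 and Zfp830) had changes between -0.25 and 0.19 with overlapping groups.

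The Zfp genes stand in chromosomal runs, defined here as at least 3 Zfp-named genes with consecutive gaps of at most 500 kb between their probes in mm9. There were 30 such runs with 197 genes, of which 163 were kept. Inside runs 8 genes rose and 6 fell (4.91% and 3.68%) with a median change of -0.09, and outside runs 7 rose and 7 fell of 119 (5.88% each) with a median of -0.03. The difference between the groups of genes was not tested. With a gap of 250 kb there were 25 runs, holding 8 rises and 5 falls, and with 1000 kb there were 31, holding 9 rises and 7 falls. In 23 runs at least 3 genes were kept, and 17 of them held changes of both signs. In 5 all changes were below 0 and in 1 all were above 0. Calls were seen in 10 runs, 1 call in 8 of these, and in the other 2 a rise and a fall stood in the same run.

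One of these is the run of 15 kept genes at chr17:21179366-23713036. Zfp54 and Zfp946 rose there, by 1.07 and 0.69, and Zfp943 fell by 0.54, while 10 of the 15 changes were below 0 and the median was -0.09. The other is the run of 10 genes at chr7:134381189-135029250, in which Zfp629 and Zfp768 rose by 0.60 and 0.48 and Zfp689 fell by 0.60. Zfp768 averaged 3.33 ± 0.03 in knockdown and 2.85 ± 0.07 in control, and Zfp689 averaged 1.26 ± 0.05 in knockdown and 1.87 ± 0.12 in control (SD, n = 3 each). Both are shown as called genes of opposite direction. That they differ by more than the spread between arrays follows from this choice and is no result about runs. The call of Zfp768 was lost whichever array was left out, and that of Zfp689 held only without control replicate 3.

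The run with the most kept genes, 18 of 20 at chr13:67139715-67927746, held 1 rise, Zfp953 at 0.47, with changes from -0.53 for Zfp58 to 0.50 for Zfp748. Zfp58 averaged -0.50 ± 0.13 in knockdown and 0.03 ± 0.16 in control (SD, n = 3 each; limma adjusted p = 0.056), so the run spans both signs. The run of 13 kept genes at chr7:30566378-30946346 held Zfp74, which fell, beside Zfp568 at 0.48 and Zfp420 at 0.32, and 9 of its 13 changes were below 0. The run of 11 at chr17:32910629-33768635 had 8 changes above 0 and a median of 0.14, with no gene past the threshold. The run of 11 at chr7:24892175-26011877 had no gene past the threshold and changes from -0.41 for Zfp94 to 0.48 for Zfp526.

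Runs whose changes all had 1 sign held at most 7 kept genes. All 7 genes of the run at chr7:13000911-13569621 had changes below 0, from -0.37 for Zfp324 to -0.03, with a median of -0.25, and no gene passed the test. All 5 at chr9:20149988-20398425 lay between -0.37 for Zfp426 and -0.14, with a median of -0.28, and again no gene passed. The 3 genes at chr17:56004862-56078099 had changes of -0.59 for Zfp119b, -0.57 for Zfp959 and -0.27 for Zfp119a, of which only Zfp959 fell. Zfp119b stood at 1.61, 1.38 and -0.59 in knockdown against 1.69, 1.39 and 1.09 in control, and without knockdown replicate 3 its change was 0.11. The 3 genes at chr15:75455531-75806179 had changes above 0, with Zfp623 at 0.82 (limma adjusted p = 0.055), Zfp41 at 0.29 and Zfp707 at 0.24. Zfp623 averaged -2.49 ± 0.15 in knockdown and -3.31 ± 0.35 in control (SD, n = 3 each).

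**Figure D4:**
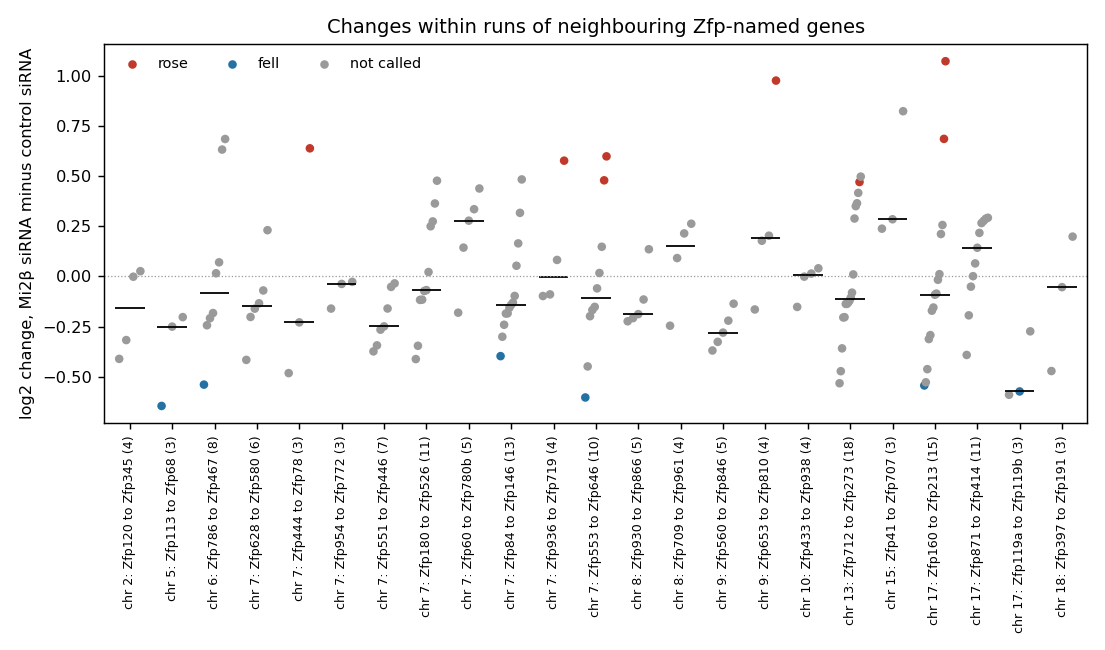
Log2 change, Mi2β siRNA minus control siRNA (y axis), of each kept gene in the 23 runs with at least 3 kept genes (x axis, named by chromosome and by first and last kept gene, number of kept genes in brackets), with black bars at run medians and colours for genes that rose, fell or were not called. Changes of both signs stand in 17 of the 23 runs.

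KRAB zinc fingers silence genes through corepressors and heterochromatin proteins, and these were looked up by list. Of 15 tested members of this list, 0 rose and 1 fell by limma, against 4.98% and 4.57% of all genes, with 0 higher and 5 lower at an unadjusted p under 0.05, against 10.5% and 13.4% of all genes tested. The fall was Atf7ip, the partner that stabilises SETDB1, which averaged 2.69 ± 0.15 in knockdown and 3.21 ± 0.10 in control (SD, n = 3 each), a change of -0.52 (SE 0.12, limma adjusted p = 0.047). Trim28 had 5.46, 5.16 and 5.29 in knockdown against 5.29, 5.17 and 4.90 in control, a change of 0.18 (limma adjusted p = 0.52), and Setdb1 one of -0.08 (0.73). Among HP1 genes Cbx5 had a change of -0.72 (limma adjusted p = 0.058), Cbx3 of -0.21 and Cbx1 of -0.16. The list's median change was -0.21, against -0.03 over all genes tested. Of 5 HUSH complex genes, which act with SETDB1 in silencing, 0 were called by limma (0 higher and 3 lower at an unadjusted p under 0.05, beside the same 10.5% and 13.4%), with Morc2a at -0.39 (limma adjusted p = 0.070) and Mphosph8 at -0.42 (0.12). Of 15 NuRD genes only Chd4, the siRNA target, passed (0 rose and 1 fell, against the same 4.98% and 4.57%). Mbd2, which binds methylated DNA in NuRD, had a change of -0.36 (limma adjusted p = 0.066) and Gatad2a one of 0.44 (0.077).

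Other zinc finger families named by the array were set beside the Zfp genes with the same filter. Of 35 Zbtb genes, which pair a BTB domain with C2H2 fingers, Zbtb2 rose by 0.98 and Zbtb40 and Zbtb16 (PLZF, a repressor of blood progenitors) fell by 0.66 and 0.64, with limma adjusted p of 0.0065, 0.022 and 0.012, and the median change was -0.12. Thus 2.86% rose and 5.71% fell, against 5.08% and 5.29% of the 18624 genes, so these calls are not a result about the family. Of 16 Zscan and Zkscan genes, which carry a SCAN domain, 0 were called by limma, with 3 higher and 2 lower at an unadjusted p under 0.05, against 10.9% and 15.4% of the 18624 genes, and a median of -0.09. Of 13 Zc3h genes, CCCH proteins that bind RNA, 0 were called by limma, 0 were higher and 1 lower at an unadjusted p under 0.05, beside the same 10.9% and 15.4%, and the median was -0.09. The differences between the families were not tested.

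The 74 Zfp genes that were not kept comprised 31 well above background on no array, 30 on 1 or 2 arrays and 13 on 3 to 5 arrays. The last 13 were tested and 0 were called by limma, with 0 higher and 1 lower at an unadjusted p under 0.05 (10.5% and 13.4% of all genes tested). No Zfp gene on the array was well above background on all 3 arrays of 1 group and on none of the other. A run of 6 Zfp genes at chr11:50624756-50884236 (Zfp354c, Zfp879, Zfp454, Zfp2, Zfp354b and Zfp354a) held 0 kept genes. In contrast all 10 genes of the chromosome 7 run with Zfp768 and Zfp689 were detected on every array.

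Zinc finger repeats are alike in sequence, so probe sharing was checked. Among the 282 probes, 2 shared a stretch of at least 25 identical bases with another Zfp probe of the array, and the longest such stretch in a called gene was 18 bases. Other tested probes were present for 116 kept genes (141 probes), and 0 passed the test in the direction opposite to a called gene. For 12 called genes there were 15 other probes, 6 of which were called in the same direction. A called change at another probe stood beside an uncalled one at the reported probe in Zfp207 (-0.93 against -0.14), a spindle protein that binds Bub3, in Zfp606 (-0.91 against -0.16), in Zfp740 (-0.63 against -0.23), in Zfp933 (0.78 against 0.11) and in Zfp59 (0.60 against 0.44). Which transcripts these probes read was not analysed here.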

How the data were processed

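RNA from 6 samples (3 with siRNA against Mi2β, 3 with non-targeting siRNA) was labelled with Cy3 from 0.1 µg and hybridised to 1-colour Agilent arrays, per the labels' protocols. The deposited intensities are background-subtracted processed signals made, per the file headers, by version 10.7.3.1 of Agilent Feature Extraction and not normalized between arrays. The 0 or 1 detection flags are also deposited there by the authors. Per the submitters' processing notes limma was also used, and its settings are not given in the sources used here. A value table deposited by the authors repeats these intensities with fewer decimals.

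Control and outlier-flagged spots were left out, spots of a probe were averaged as log2, and each array's 75th percentile was subtracted. Genes well above background on at least 3 arrays (22054) were tested with limma 3.58.1 in R 4.3.3 (two-sided, no covariate). Zfp939 has an outlier-flagged value on 1 array, and its fit used the other 5. Gene names are those of the array, and 263 of 269 accessions matched in the RefSeq table of GRCm38.p6 had the same symbol. The number of arrays limits the precision. Members and lists were chosen with earlier results of these data known. Genes were named by rule: Chd4, the 12 largest rises and falls past the threshold, up to 3 genes per run, and listed genes. Other called genes and discordant probes were chosen after their values were seen. On simulated data with 22021 genes the fit recovered 7.46%, 44.8% and 72.7% of genes changed 1.5-, 2- and 4-fold. Only 67, 67 and 66 genes were changed there, while 1099 rose and 1007 fell in the data. The adjusted p depends on the share of changed genes, so these rates do not give the recovery in the data.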

Additional observations from a re-analysis of the deposited data

How the results depend on the processing

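Across 19 alternatives Chd4 stayed past the threshold, with log2 changes from -1.54 to -1.23 and limma adjusted p from 2.0e-05 to 0.027. Of the 28 called Zfp genes, Zfp296, Zfp1 and Zfp105 kept their call in all 19. Counts of Zfp genes that rose and fell, 15 and 13 as reported, were 28 and 26 with normexp and quantile normalization, 3 and 0 with array median scaling, 23 and 22 with a filter of all 6 arrays, 7 and 2 with no detection filter, 37 and 34 with array weights, 22 and 30 with an intensity trend, 9 and 10 with the slide row as a block, 5 and 1 within slide row 1 alone, and 5 and 0 with the replicate number as a block. With 1 array left out they ranged from 6 to 12 and from 2 to 6. Quantile normalization (20 and 16), the mean over probes (11 and 11), outlier-flagged spots kept and the deposited value table (15 and 13 each) moved them by at most 1.5 times. The cause was not tested. The 2 filters also changed the number of genes fitted and adjusted over (18624 and 34821, against 22054), and the reduced fits held fewer samples.

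The median change of Zfp genes, -0.06, was -0.29 with array median scaling, which put the median of all genes at -0.27, and it moved elsewhere by less than the spread between arrays. With 1 array left out it ran from -0.09 to -0.03. Zfp352 and Zfp74 reversed with the mean over probes (0.0065 and 0.016), which takes in probes that did not pass the detection filter. The replicate numbers did not pair the samples: same-numbered arrays deviated together with correlations of 0.20, -0.32 and 0.13 across 22021 genes, and only knockdown replicate 1 correlated best with its own number. Array weights gave knockdown replicate 1 a weight of 7.34, and the others 0.51 to 1.33. Low signal limits the genes below background, for which no fold is given.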

Other observations

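By chromosome, the 282 kept genes were concentrated on chromosome 7 with 72 genes (5 rose, 3 fell, median change -0.09, against -0.06 over the 1426 detected genes there) and on chromosome 17 with 35 (3 rose, 2 fell, median -0.04, against -0.06). Chromosome 13 had 29 (1 rose, 0 fell) and chromosome 11 had 9 (1 rose, 3 fell). The 9 genes on chromosome 15 had a median change of 0.19 with 0 calls by limma, against -0.02 over the 710 detected genes there. Other chromosomes went the other way, with medians of -0.39 on chromosome 12 (5 genes), -0.23 on chromosome 18 (7) and -0.18 on chromosome 2 (15). Over all genes tested 4.98% rose and 4.57% fell. These groups are small, and differences between chromosomes were not tested.

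Several array names have since changed. Zfp828 is Champ1 and Zfp259 is Zpr1 in the RefSeq table, neither with a Zfp symbol now, with changes of 0.19 and -0.17, and Zfp191, now Zfp24, had 0.20. None of the 6 renamed genes was called.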
